A study of Mus musculus with 312 samples.

Results

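Of the 312 mouse mammary cells profiled singly in the series, 75 were titled as pregnancy basal cells, and 70 of these entered the comparison of cells with and without Csn3, the gene for kappa-casein. Cells were retained when they had at least 50000 reads in named genes and 1000 detected genes, mitochondrial and ribosomal protein genes left out, which 71 of the 75 cells did, and cell 71 was then set aside. The classes were chosen by the Csn3 level itself: 23 cells at 100 CPM or more (reads scaled to the total in those named genes) were called Csn3-positive, and 47 cells below 100 CPM were called Csn3-low. All cells came from FVB/NJ mice, were freshly sorted and were captured on the Fluidigm C1 System. The labels give the stage as pregnancy without a day and the cell source as Basal, whereas the study's text describes its pregnancy C1 cells as total epithelium. For comparison, 139 of 237 adult basal cells of the same strain passed the same filter, pooled from a set whose titles carry the mark (2), with 81 of 112 cells retained, and an unmarked set, with 58 of 125. The labels name no animals, so each stage counted as 1 sample, cells were not treated as replicates of a stage, and no test was made. Intervals for shares of cells take the cells as independent draws, although some cells shared content, as described below. Intervals for shares of reads take the reads as independent. No interval covers the spread between animals.

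The secretory luminal cells of the mammary gland make caseins, the phosphoproteins that assemble into micelles in milk. Kappa-casein caps the micelle surface and keeps it in suspension, while the other caseins carry most of the calcium phosphate. Prolactin, acting through its receptor, Jak2 and Stat5, together with glucocorticoids, drives casein transcription in luminal alveolar cells, whereas basal (myoepithelial) cells are contractile, carry Krt14, Acta2 and Trp63, and respond to oxytocin.

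Csn3 lies in a casein cluster on chromosome 5 (GRCm38, chr5:87925579-87932550), beside Csn1s1 (chr5:87666208-87682578), Csn2, which encodes beta-casein (chr5:87692619-87699429), and Csn1s2a (chr5:87774450-87788798). The RefSeq start-site windows of those neighbours, from 250 bases before to 50 after the start (GRCm38.p6), are shown because the comparison asks whether these genes went with Csn3, and capitals mark TTCNNNGAA, the palindrome to which Stat5 is known to bind. On the plus strand, Csn1s1 is at chr5:87665958-87666257 and Csn1s2a at chr5:87774200-87774499, and on the minus strand Csn2 is at chr5:87699376-87699675.
Csn1s1: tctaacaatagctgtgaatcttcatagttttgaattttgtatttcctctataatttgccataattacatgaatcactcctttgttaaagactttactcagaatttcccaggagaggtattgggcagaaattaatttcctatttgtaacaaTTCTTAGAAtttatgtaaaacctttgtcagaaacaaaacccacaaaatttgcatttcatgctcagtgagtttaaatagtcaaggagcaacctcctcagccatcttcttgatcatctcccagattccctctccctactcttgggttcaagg
Csn2: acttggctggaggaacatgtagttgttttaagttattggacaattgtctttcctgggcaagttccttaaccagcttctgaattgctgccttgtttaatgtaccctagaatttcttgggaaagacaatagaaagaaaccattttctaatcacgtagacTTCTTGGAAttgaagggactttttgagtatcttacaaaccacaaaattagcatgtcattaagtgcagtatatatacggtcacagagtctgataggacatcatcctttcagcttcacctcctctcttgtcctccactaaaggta
Csn1s2a: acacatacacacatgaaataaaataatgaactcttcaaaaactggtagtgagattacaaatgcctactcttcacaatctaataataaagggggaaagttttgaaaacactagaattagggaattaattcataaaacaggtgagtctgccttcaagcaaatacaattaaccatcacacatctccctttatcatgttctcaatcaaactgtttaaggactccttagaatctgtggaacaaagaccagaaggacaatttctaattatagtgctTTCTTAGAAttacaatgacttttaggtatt
The palindrome, which reads the same on both strands, began 100 bases before the start in Csn1s1, 93 bases before it in Csn2 and 20 bases after it in Csn1s2a. It was present in 8.30% of 32851 windows of the same length, and a match of letters is not a measured site.

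Csn3 was spread over a wide range in the cells that it defined. It was lowest at 104 CPM, had a median of 311 CPM and reached 6209 CPM in cell 46, and the next highest cell, cell 72, had 751 CPM. The positive cells nearest to the threshold had 104, 110, 115 and 116 CPM, and the low cells nearest to it had 91.2, 85.1, 76.2 and 73.1 CPM, so no wide gap separated the classes. In 29 of the 47 low cells no Csn3 read was counted. Depth was similar, with medians of 200858 reads in named genes in positive cells and 248306 in low cells, and 4469 and 4458 genes detected, respectively.

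Before other genes are compared, the likeness of the cells to each other has to be given, because cells with neighbouring numbers in their titles shared content. Likeness was the correlation of 2 cells across 3745 genes on the log2(CPM + 10) scale after centring each gene, with Csn3 left out, and pairs at 0.1 or more were called linked. Of 64 pairs with adjacent numbers 23.4% were linked, against 0.0802% of 1247 pairs whose numbers lay 21 or more apart. Linked pairs made up 8.30% of the 253 pairs within the positive class, 5.46% of the 1081 pairs within the low class and 0.925% of the 1081 mixed pairs. In the adult cells 0.792% of 9591 pairs were linked. Csn3 differed by cell number too. Of the cells numbered 1 to 37, 14 of 35 were positive, and of those numbered 38 to 75, 9 of 35. Among low cells, Csn3 was read in 13 of 21 cells numbered 1 to 37 and in 5 of 26 numbered 38 to 75. What the cell number stands for is not given in the labels, and the origin of the shared content was not tested.

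Of the 23 positive cells, 11 were linked to another positive cell, namely cells 10, 19, 24, 28, 32, 33, 36, 39, 40, 41 and 46. The closest pair was 36 and 41, at a correlation of 0.32. The same 11 cells were linked when genes of even-numbered chromosomes alone were used, which linked 13 positive cells, and when genes of odd-numbered chromosomes alone were used, which linked 11. Among low cells, 31 of 47 were linked to some other cell. Results are therefore given for all 23 positive cells and for the 12 that were not linked to another positive cell. Below, the linked cells are the 11 positive cells named above. Leaving them out kept all 47 low cells, linked or not, and positive cell 16, which was linked to low cell 6.

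**Figure D1:**
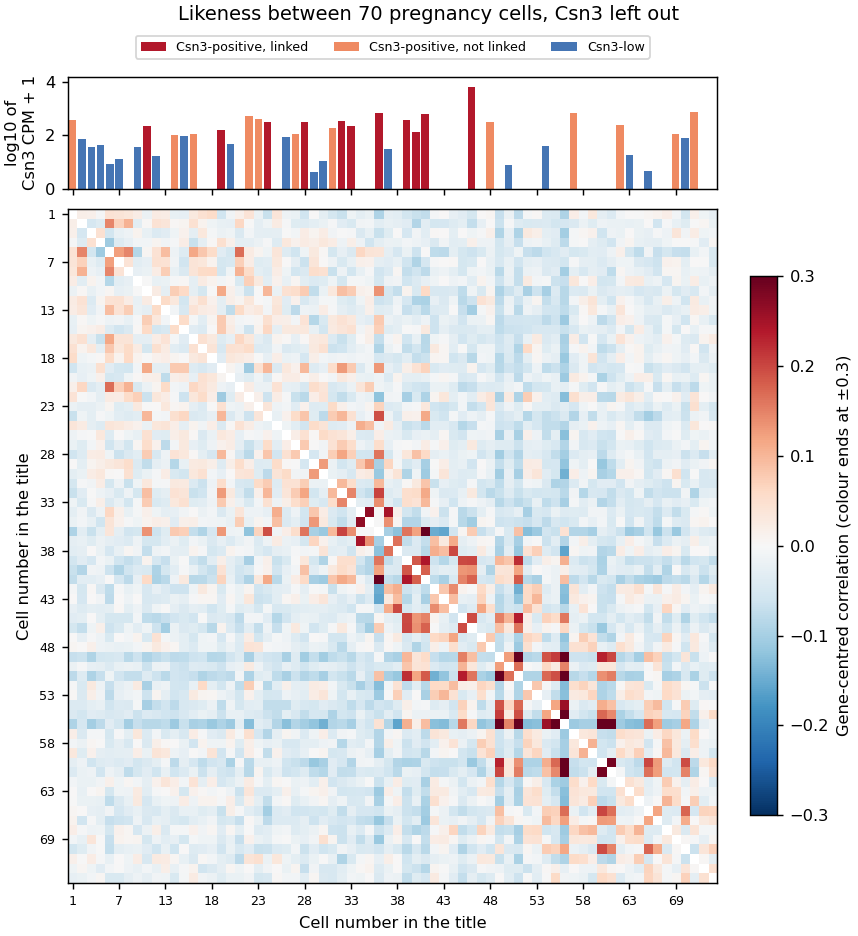
Likeness between the 70 pregnancy cells in the order of the cell number in their titles (matrix; gene-centred correlation, Csn3 left out) under the log10 of Csn3 CPM + 1 in each cell (bars). Warm squares lie near the diagonal. Numbers from 1 to 37 hold 7 of the 11 linked positive cells and 14 of all 23 positive cells.

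A set of genes outside the casein family accompanied Csn3 in the linked cells. Dicer1, the nuclease that cuts microRNA precursors, ranged from 144 to 638 CPM in the 11 linked cells, with a median of 219 CPM, and Csn3 divided by Dicer1 had a median of 1.02 there, with a lowest value of 0.600 and a highest of 36.7 in cell 46. In the 12 other positive cells Dicer1 reached 100 CPM in 4. All 11 linked cells reached it, against 3 of 47 low cells. In all, 32 genes reached 100 CPM in at least 50% of linked cells and in at most 10% of low cells, and their median share was 63.6% in linked, 8.33% in other positive and 5.32% in low cells. Those genes included Xbp1, the lipid carriers Fabp4 and Cd36, Pln (phospholamban) and the Wnt receptor Fzd4. Since these genes also entered the correlation that linked the cells, this is a description and not a separate finding. These genes were singled out after their values were seen.

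**Figure D2:**
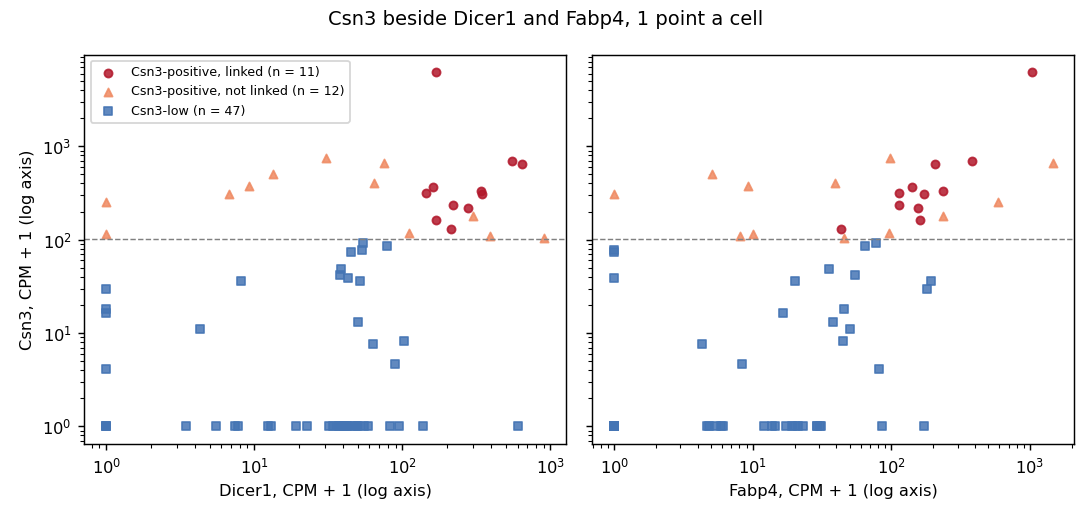
Csn3 against Dicer1 (left) and Fabp4 (right) in CPM + 1 on log axes, 1 point a cell, with the 100 CPM threshold dashed. The 11 linked cells lie at Dicer1 levels of 144 CPM or more, whereas the other positive cells spread from 0 to 910 CPM.

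The positive cells carried the markers of basal cells. Of the 11 core basal genes, none differed by 2-fold between the class means, and their median log2 ratio (positive over low, 10 CPM added) was -0.09, beside -0.02 over all 4724 genes compared. Acta2, smooth muscle actin, averaged 19883 CPM in positive and 21185 CPM in low cells and reached 100 CPM in every cell. Krt14, the basal keratin, averaged 2786 and 3526 CPM. Mylk, the kinase that starts smooth muscle contraction, averaged 9079 and 7196 CPM. At least 3 core basal genes reached 100 CPM in each of the 70 cells, positive cells included.

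Some basal genes were seen in a larger share of positive cells. Trp63, the transcription factor of basal epithelia, reached 100 CPM in 18 of 23 positive cells (78.3%, exact 95% interval 56.3 to 92.5%) and in 18 of 47 low cells (38.3%, 24.5 to 53.6%), with a log2 ratio of means of 0.52. Snai2, a repressor of epithelial genes, reached it in 65.2% and 34.0% of cells, but its mean was 218 CPM in positive and 285 CPM in low cells. Trp63 reached the level in 10 of the 11 linked and 8 of the 12 other positive cells. Its rank correlation with Csn3 was 0.22 over the 70 cells and 0.07 over the 59 cells without the linked positive ones. Among 12 other basal genes compared, 3 were past 2-fold higher: the Notch ligand Jag2 (log2 ratio 1.75, in 3 positive cells at 100 CPM), the regulator Id4 (1.22) and vimentin, Vim (1.08). None was past 2-fold lower. These counts stand beside 19.7% higher and 18.1% lower over all 4724 genes compared. Id4 and Vim were below 2-fold without their highest positive cell, cell 36 for Id4 (0.88) and cell 46 for Vim (0.93), and Id4 was at 0.87 without the linked cells.

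The other caseins differed among themselves in the ratio of class means. Over the 70 cells, all 3 that were well measured had positive rank correlations with Csn3, but within the linked cells only Csn1s1 did. Of the 6 other milk protein genes, 3 had a mean of at least 50 CPM in a class, with 1 past 2-fold higher, 1 past 2-fold lower and 1 between, and the median over the 6, of which the other 3 had few or no reads, was -0.01. With the Csn3 threshold at 10 or 50 CPM that median was 0.45 or 0.72, and without every linked cell of either class it was 1.02. Across the 70 cells the rank correlation with Csn3 was 0.53 for Csn1s1, 0.40 for Csn1s2a and 0.26 for Csn2. Over the 59 cells without the linked positive ones it was 0.46, 0.40 and 0.36. Within the 11 linked positive cells it was 0.63, -0.47 and -0.04. The cells shared a platform but differed in depth and cell number. Over the 70 cells, reads in named genes had a rank correlation of -0.27 with Csn3. The part of depth and cell number in the casein correlations was not tested. Over all genes compared 19.7% were past 2-fold higher and 18.1% past 2-fold lower, so single 2-fold differences were common between these classes. Another casein gene reached 100 CPM in 8 of 23 positive cells (34.8%, 16.4 to 57.3%) and in 10 of 47 low cells (21.3%, 10.7 to 35.7%). Of the linked cells 3 of 11 had one, and of the other positive cells 5 of 12.

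Csn2 was the casein whose mean was past 2-fold higher in positive cells. It averaged 123 CPM in positive and 35.4 CPM in low cells (log2 ratio 1.55), reaching 100 CPM in 5 of 23 and 3 of 47 cells, while the median was 0 CPM in both classes. Its highest cells were cell 69 at 1480 CPM and cell 40 at 541 CPM, where Csn3 was only 115 and 128 CPM. Without cell 69 the ratio was 0.65, below 2-fold. Without the linked cells it was 2.13, but cell 69 was still among the 12 other positive cells, where Csn2 averaged 189 CPM. Among low cells, cell 66 had 905 CPM of Csn2 with no Csn3 read. The cells richest in Csn2 were thus not those richest in Csn3.

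Csn1s2a, given with Csn3 as a marker of the cells, had the lower mean in positive cells but was read in more of them. Reads were found in 21 of 23 positive and 28 of 47 low cells, with medians of 18.2 and 3.68 CPM. It averaged 49.0 CPM in positive and 182 CPM in low cells (log2 ratio -1.70). Cells 2 and 37, both Csn3-low, held 5211 and 1712 CPM, and without cell 2 the ratio was -0.49. The highest positive cell was cell 57, with 418 CPM. Cell 57 was the only positive cell with 100 CPM or more of Csn1s1, Csn2 and Csn1s2a together, at 239, 184 and 418 CPM beside 662 CPM of Csn3. In the low class, cell 2 likewise held all of them, with 1367 CPM of Csn1s1 and 110 CPM of Csn2, and its Csn3 was 73.1 CPM.

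Csn1s1 was alike in mean but not in how many cells held a trace of it. The means were 75.7 and 64.9 CPM (log2 ratio 0.20, turning to -0.20 without cell 48 and 0.88 without cell 2), and 4 cells of each class reached 100 CPM. All 23 positive cells held at least 1 read, from 6.08 to 525 CPM with a median of 35.7 CPM, while 20 of 47 low cells held none and the low median was 8.20 CPM. With each cell thinned to 50000 reads, Csn1s1 was found in 87.0% of positive and 42.6% of low cells, and Csn1s2a in 73.9% and 36.2%. Such traces went with the cell number too: low cells numbered 1 to 37 held Csn1s1 reads in 18 of 21 cases, and low cells numbered 38 to 75 in 9 of 26. The part of the cell number in these traces was not tested.

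**Figure D3:**
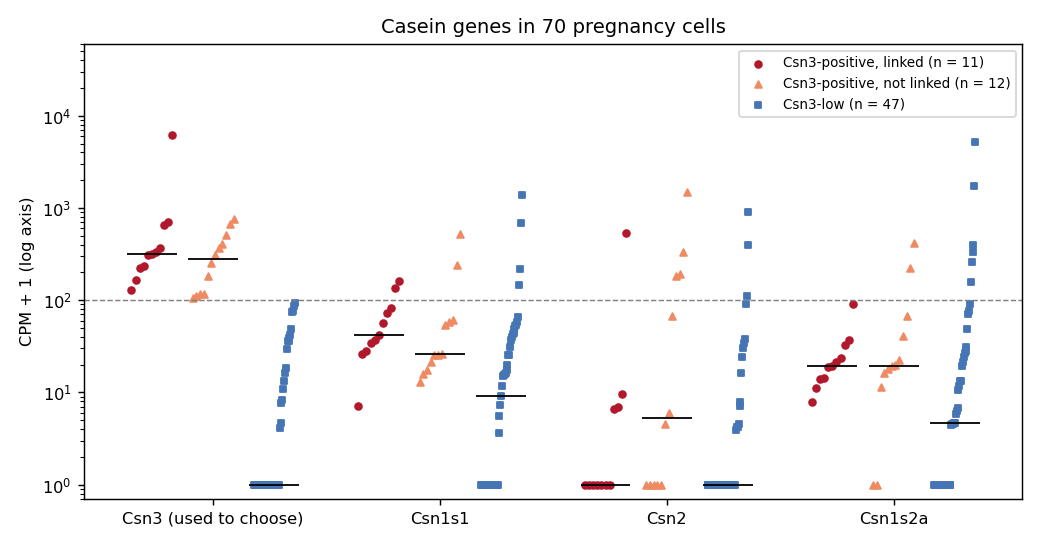
Levels of 4 casein genes in CPM + 1 (log axis) in each of 11 linked positive, 12 other positive and 47 low cells; bars mark medians and the dashed line 100 CPM. Csn3 chose the classes, and for the other caseins the highest cells lie in both classes, Csn1s2a reaching 5211 CPM in a Csn3-low cell.

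Wap and Lalba, late milk genes for whey acidic protein and alpha-lactalbumin, had no read in any positive cell, and Csn1s2b had 1 read there. In the low class, cell 66 held 111 CPM of Csn1s2b with no Csn3 read. Of the 6 other milk protein genes only 1 had no read in either class. Around the cluster, the non-casein genes within 500 kb were silent or nearly so, the highest mean being 9.03 CPM for Smr2 in positive cells.

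Cell 71, set aside by the rule, had a different casein make-up. It held 38625 CPM of Csn3, and Csn3 made up 17.3% (17.0 to 17.7%) of its 40835 reads in Csn1s1, Csn2, Csn1s2a and Csn3, behind Csn1s2a at 43.7% and Csn2 at 23.9%. In the positive cells Csn3 made up 68.4% (66.9 to 69.8%) of 4089 such reads, and 52.0% of 2621 without cell 46. In the linked cells the share of Csn3 was 88.5%, in the other positive cells 41.6%, and in cell 46 alone 97.5%. Cell 46, itself linked, gave 1432 of the 2065 Csn3 reads and 1468 of the 2333 such reads of the linked cells. Most of the reads behind the share of 88.5% therefore came from that cell. The 52.0% without cell 46 pools the remaining linked cells with the other positive cells, which had 41.6%. The share of Csn3 in the remaining linked cells was therefore above 52.0%, although its exact value was not calculated. As Csn3 chose the positive cells, its share there is partly set by the rule.

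Luminal genes were few and uneven. Of 9 pan-luminal genes 3 were compared, and only Krt18, a keratin of simple epithelia, was past 2-fold (161 against 50.9 CPM, log2 ratio 1.49). It reached 100 CPM in 6 of 23 positive cells (26.1%, 10.2 to 48.4%) and 5 of 47 low cells (10.6%, 3.55 to 23.1%). Its highest cell, the linked cell 36, held 2010 CPM, and without that cell the ratio was 0.52. Krt8, the partner keratin, averaged 282 and 205 CPM, reached 100 CPM in 56.5% and 34.0% of cells, and averaged 445 CPM in linked but 132 CPM in other positive cells. Epcam, the epithelial adhesion molecule, averaged 478 and 459 CPM. The median over the 9 genes was 0.06 with all positive cells and -0.51 without the linked cells.

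Luminal progenitor and hormone-sensing genes were low in both classes. None of 8 luminal progenitor genes and none of 12 mature luminal genes had a mean of 50 CPM in either class, and in no cell did 3 or more of either list reach 100 CPM. The summed progenitor level had a median of 0 CPM in both classes and reached 253 CPM in positive and 20.5 CPM in low cells. Ehf, a transcription factor of luminal progenitors, averaged 16.0 CPM in positive cells, with 2 cells at the level, and 0.277 CPM in low cells, where no cell reached it. Cd55, a complement regulator that the study examined in luminal progenitors and that is outside the lists, was looked at after its values were seen: it averaged 98.5 CPM in positive cells, with 18 of 23 at 0 and 2 at the level, the highest being cell 62 at 1197 CPM, and had no read in any low cell. Of the 7 genes the study used to mark luminal cells in pregnancy, a list chosen on overlapping cells and so not independent, 2 were compared: Csn2 and Krt8, given above. Of 200 published luminal genes 195 were matched and 13 compared, 6 past 2-fold higher and 1 lower. Of 200 published basal genes 196 were matched and 127 compared, 16 past 2-fold higher and 14 lower. Both stand beside 19.7% higher and 18.1% lower over all 4724 genes. Without the linked cells the counts were 4 and 1 for luminal and 11 and 18 for basal genes, beside 750 and 1078 over all genes.

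The machinery of secretion was present in both classes. Of 22 genes for protein entry, folding and export in the endoplasmic reticulum, 20 were compared, and the median log2 ratio was 0.20. Past 2-fold, 2 were higher and 1 lower, beside 19.7% higher and 18.1% lower over all genes compared. Xbp1, the transcription factor that expands the secretory apparatus, averaged 84.6 CPM in positive and 19.5 CPM in low cells (1.68), at 100 CPM in 8 of 23 positive cells, 6 of them linked, and in 2 of 47 low cells. Without the linked cells its ratio was 0.95. Ssr4, a subunit of the translocon-associated complex, averaged 390 and 180 CPM (1.07, or 0.81 without cell 46 and 0.58 without the linked cells). The chaperone Calr was lower, 364 against 760 CPM (-1.04, or -0.93 without the low cell 38), whereas Hspa5 averaged 1503 and 1680 CPM and reached 100 CPM in every cell of both classes.

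Genes of milk fat secretion were not higher with Csn3. Of 18 other milk and secretory genes 5 were compared, none past 2-fold higher and 2 lower. Mfge8, a coat protein of the milk fat globule that basal cells also carry, averaged 427 CPM in positive and 1240 CPM in low cells (log2 ratio -1.52). Plin2, which coats lipid droplets, averaged 7.74 and 67.1 CPM (-2.12), and 1 low cell, cell 54, held 2039 CPM; without it the ratio was -0.95. Of 16 lipid synthesis genes 7 were compared, none past 2-fold higher and 2 lower: Dgat2, the enzyme of the last step of fat synthesis, at -2.05, and Elovl1, which lengthens fatty acids, at -1.95. Elovl1 turned to 0.24 without the low cell 54. The counts of both lists stand beside 19.7% higher and 18.1% lower over all genes compared.

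In the prolactin and Stat5 list, 9 of 15 genes were compared, 3 past 2-fold higher and 1 lower. Jak2, the kinase bound to the prolactin receptor, averaged 138 CPM in positive and 19.7 CPM in low cells (log2 ratio 2.32), at 100 CPM in 7 of 23 cells (30.4%, 13.2 to 52.9%) and 2 of 47 (4.26%, 0.520 to 14.5%), and its ratio was 2.10 without the linked cells. Nr3c1, the glucocorticoid receptor, averaged 218 and 91.0 CPM (1.18) and reached 100 CPM in 65.2% and 23.4% of cells; 10 of 11 linked but 5 of 12 other positive cells reached it, and without the linked cells the ratio was 0.58. Insr, the insulin receptor, owed its 85.1 CPM to cell 31, and the ratio of 1.64 became 0.54 without that cell. Stat5a was lower, 35.4 against 134 CPM (-1.67), and Prlr, the prolactin receptor, was not among the genes compared. These 4 of 9 genes stand beside the 19.7% higher and 18.1% lower over all genes.

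**Figure D4:**
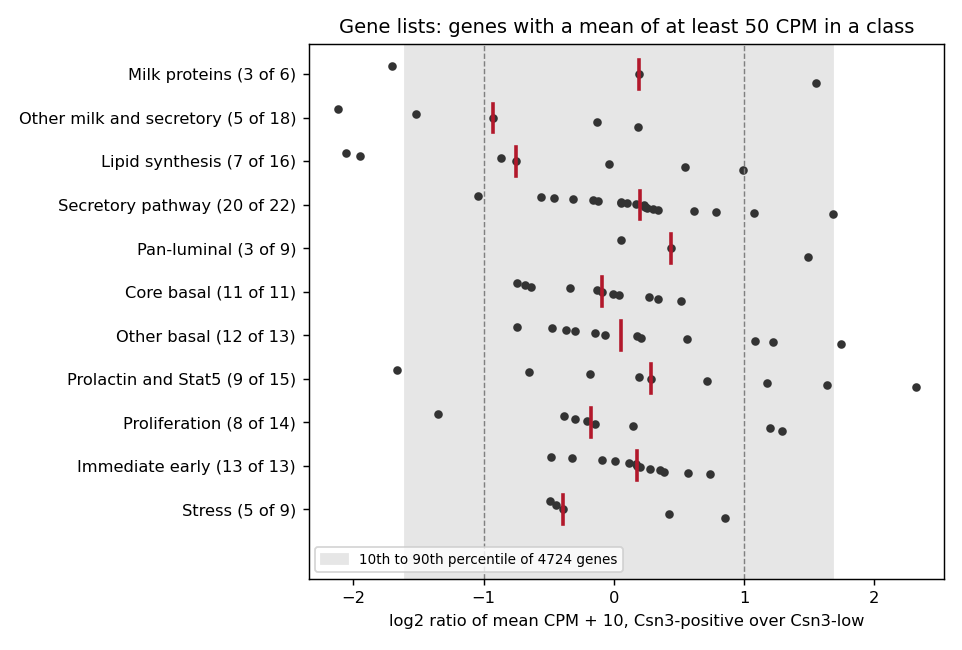
Log2 ratios of mean CPM + 10, Csn3-positive over Csn3-low, for the compared genes of 11 lists (1 point a gene, number compared of number matched in parentheses; red bars, medians), with the 10th to 90th percentile of all 4724 genes shaded and 2-fold dashed. The core basal and immediate early genes stay within 2-fold, and the 3 caseins lie at -1.70, 0.20 and 1.55.

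By the rule for naming genes (same direction at or under and over the median mitochondrial share and without the highest cell), 420 genes were higher and 558 lower, and the 10 leading genes of each direction are given. Those higher were Gopc, Chordc1, Chpf, Pdrg1, Fzd4, Pfkl, Casc3, Inip, Rhbdd1 and Trappc1. Gopc, a Golgi scaffold, averaged 203 and 8.34 CPM (log2 ratio 3.54) and reached 100 CPM in 4 linked, 3 other positive and 1 low cell. Chordc1, a partner of the chaperone Hsp90, averaged 288 and 29.3 CPM (2.92), in 8 linked, 6 other positive and 3 low cells, and stayed at 3.23 without the linked cells. Pfkl, a glycolytic enzyme, averaged 204 and 22.7 CPM (2.71), in 2 linked and 5 other positive cells. In contrast, Fzd4, Inip and Rhbdd1 reached 100 CPM in 7, 7 and 8 linked cells and in none of the other positive cells, and without the linked cells their ratios were 0.74, 0.37 and 0.94. None of the 10 is a milk, luminal or basal marker of the lists.

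Those lower were Gpr89, Sec13, Spry4, Cyp1b1, Strap, Ube2z, Wdsub1, Rnft1, Vps25 and Dync1li2. Gpr89 averaged 2.38 CPM in positive and 155 CPM in low cells (log2 ratio -3.74), and Sec13, a coat protein of vesicles that leave the endoplasmic reticulum, 15.9 and 231 CPM (-3.21). Spry4, an inhibitor of growth factor signalling, averaged 21.6 and 251 CPM (-3.05). Without the linked cells the ratios of these 3 were -3.58, -3.39 and -2.83. By share of cells, a view taken after the values were seen, the transcription factor Nfix reached 100 CPM in 30.4% of positive and 68.1% of low cells, and Bbx in 13.0% and 59.6%. Bbx was below 100 CPM in all 11 linked cells.

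Markers of other cell types were checked in both classes. Fabp4, found in fat and capillary cells, averaged 232 and 30.3 CPM (log2 ratio 2.58) and reached 100 CPM in 13 of 23 positive cells (56.5%, 34.5 to 76.8%) and 3 of 47 low cells (6.38%, 1.34 to 17.5%), with a ratio of 2.48 without the linked cells and 1.48 when cell 57, at 1454 CPM, was also left out. Of the other 7 adipocyte genes none was compared; Adipoq and Cidec had no read in any positive cell, and Car3 was read in 1, the linked cell 46, at 785 CPM. Cd36, of fat and capillary cells and outside the list, averaged 84.8 and 10.8 CPM and reached 100 CPM in 6 linked, 1 other positive and 1 low cell. The summed level of the adipocyte list ran from 0 to 1821 CPM in positive and from 0 to 195 CPM in low cells. Of 8 endothelial, 8 immune and 8 pericyte genes none was compared, and Emcn, Tie1, Cd52, Lyz2 and Rgs5 had no read in any positive cell. The summed endothelial level was at most 124 CPM in positive and 178 CPM in low cells, and the median was 0 CPM in both. The summed immune level had medians of 7.94 and 0 CPM, and its highest positive cell had 1275 CPM. The summed pericyte level reached 542 CPM in positive and 859 CPM in low cells. Of 8 fibroblast genes 2 were compared, Pdgfra past 2-fold lower (-3.20, or -0.65 without the low cell 6) and Dcn at 975 and 1194 CPM, and of 6 Schwann cell genes 1 was compared, Mbp, within 2-fold. The part of such cells in the Fabp4 and Cd36 values was not tested.

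Division genes were mixed, and early response and stress genes stayed within 2-fold. Of 14 proliferation genes 8 were compared, 2 past 2-fold higher (Top2a and Bub1) and 1 lower (Cdk1); Top2a owed its 273 CPM mainly to cell 23, without which the ratio of 1.20 became 0.54, Bub1 became 0.14 without cell 72, and Cdk1 became -0.67 without the low cell 34. All 13 immediate early genes were compared and none was past 2-fold, with Fos at 4582 and 3586 CPM. Of 9 stress genes 5 were compared and none was past 2-fold. The shares over all genes compared were 19.7% higher and 18.1% lower.

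The median mitochondrial share of reads was higher in positive cells. It ran from 10.1 to 54.3% with a median of 22.5% in positive cells, and from 4.43 to 48.6% with a median of 17.3% in low cells, a difference of 5.11 percentage points between strongly overlapping ranges. At or under the common median of 18.4%, 8 of 35 cells were positive (22.9%, 10.4 to 40.1%), and over it 15 of 35 (42.9%, 26.3 to 60.6%), intervals that overlap. The median was 21.0% in linked and 23.1% in other positive cells. Among the 6 positive cells over 500 CPM of Csn3 the difference from the rest was 24.9 points. The rank correlation of Csn3 with the share was 0.35 over 70 cells and 0.27 over the 59 cells without the linked positive ones.

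The other genes were then compared at similar mitochondrial shares. In cells at or under the median share the log2 ratios of Csn1s1 and Krt18 were 2.12 and -0.99. In cells over it they were -0.88 and 2.33, so both turned direction. Single cells weighed on these ratios. At or under the median, positive cell 48 held 525 CPM of Csn1s1, and no other positive cell there held more than 56.7 CPM. Over it, low cell 2 held 1367 CPM. The positive cell highest in Krt18, cell 36, also lay over it. The ratios on each side without these cells were not calculated. Dicer1 (1.62 and 1.93), Jak2 (1.65 and 2.92), Nr3c1 (0.93 and 1.47) and Xbp1 (1.18 and 2.28) were higher on both sides of the median. Csn2 was too (2.12 and 1.35), but at or under the median its level rested on positive cells 69 and 40, at 1480 and 541 CPM. No other positive cell there held more than 3.54 CPM of Csn2. The median of the core basal genes moved by less than 0.25 on either side.

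**Figure D5:**
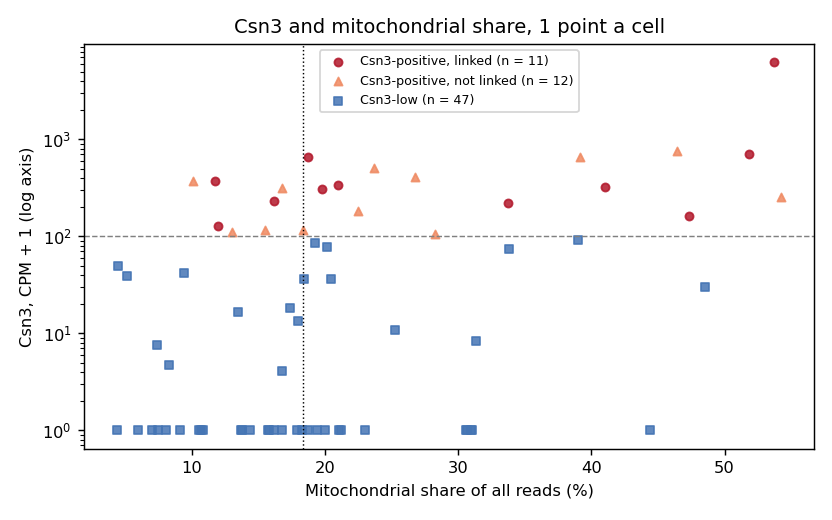
Csn3 (CPM + 1, log axis) against the mitochondrial share of all reads in 70 pregnancy cells; the dotted line marks the median share of 18.4% and the dashed line 100 CPM of Csn3. Positive cells lie on both sides of the median share, 8 at or under it and 15 over it.

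In adult basal cells, which the choice of pregnancy cells did not use, 7 of 139 cells reached 100 CPM of Csn3, from 113 to 2573 CPM, of which 1 came from the 81 cells of the set marked (2) and 6 from the 58 cells of the unmarked set. Cells 155 and 135, both of the unmarked set, held Csn1s1 (4868 and 1695 CPM), Csn2 (777 and 466 CPM), Csn1s2a (614 and 410 CPM) and Fabp4 (2666 and 12219 CPM). These 2 cells were linked to each other at a correlation of 0.30. In the other 5 adult cells no read of Csn1s1, Csn2 or Csn1s2a was counted. The median log2 ratio of the milk protein list, adult positive over adult low, was 1.92 with all 7 cells and -0.27 without that pair, and that of the core basal list was -0.45 and -0.13.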

How the data were processed

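The values were whole-number read counts per gene that the authors deposited for each cell: polyadenylated RNA from single sorted cells, Nextera XT libraries and NextSeq 500 sequencing, mapped to mm10 with Subread 1.5.0 and counted with featureCounts over RefSeq genes. The strand setting is not given in the sources used here. The libraries carried no molecular identifiers, so copies made by amplification were counted as reads. The intervals for shares of reads do not allow for such copies. The study inspected capture sites for single cells, and no doublet caller was run here.

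Gene IDs were named with a RefSeq table of GRCm38.p6, and 1904 of 27179 IDs without a symbol were left out with 15 mitochondrial and 124 ribosomal protein genes. CPM were taken over the remaining 25136 genes. A gene was compared when either class averaged 50 CPM or more, by the log2 ratio of class means plus 10 CPM, and 2-fold was the level counted. Shares have exact Clopper-Pearson 95% intervals. Genes were named when 25% or more of the cells in the class with the higher mean reached 100 CPM and the sign was shared by all cells, the cells on either side of the median mitochondrial share and the cells without the highest one; the 10 in each direction with the largest smallest ratio were taken, beside the list genes and those within 500 kb of the caseins. Members and lists were chosen with earlier results of these data known. Scaling alternatives used edgeR 4.0.16 and DESeq2 1.42.0 factors of summed counts. The ratio and the likeness measure were tested on simulated data. Python 3.11.15, numpy 2.4.6 and scipy 1.17.1 were used. The table of the whole series repeated the single files and was not used.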

Additional observations from a re-analysis of the deposited data

Results flagged for a closer look

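Csn3 reads were counted in pregnancy cells that entered no comparison. Cell 3, with 19416 reads in named genes and a mitochondrial share of 91.1%, had 24 Csn3 reads, and cell 68, with 28885 reads and a share of 58.4%, had 17. Cell 71 had 7077 Csn3 reads among 183225, with a mitochondrial share of 56.5%.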

How the results depend on the processing

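The choice of Csn3 threshold set how many cells were positive: 36 at 10 CPM and 6 at 500 CPM, against 23. The milk protein median was 0.45 at 10 CPM and 0.72 at 50 CPM, and the core basal median -0.46 at 200 CPM and -0.53 at 500 CPM, where the mitochondrial difference was 24.9 points. With cell 71 included the milk protein median was 2.54 and the pan-luminal median 0.71. Counts of genes past 2-fold depended most on the handling of low values: 182 higher and 107 lower with 100 CPM added, 328 and 153 with means of log2 values, and 1556 and 1875 with a minimum mean of 10 CPM or none, against 932 and 854. CPM over all reads gave 565 higher, with the median of all genes at -0.21. In cells at or under the median mitochondrial share 1403 genes were lower and the pan-luminal median was -0.79. The alternatives on linked cells were added after the data were seen. Without the linked positive cells the pan-luminal median was -0.51; with those cells alone 1444 genes were lower; without every linked cell of either class the milk protein median was 1.02, the core basal median -0.40 and the mitochondrial difference 8.20 points. Cell 46 changed none of these values beyond the limits used (1.5 times for counts and shares, 0.25 for medians). The causes of these shifts were not tested. No paired analysis was possible because the result comes from no test. The labels name no animals, so the spread between animals is unknown.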
